A study of Mus musculus with 10 samples.

Results

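The transcripts of the mitochondrial genome were followed in leukemia initiating cells of mouse pups given Poly(A:U) or PBS. The members were all genes of the GENCODE M21 annotation whose symbol starts with mt-, which gave 37 of the 55494 genes in the files. They were 13 mRNA genes, 2 rRNA genes and 22 tRNA genes, and they were all the genes annotated on the mitochondrial chromosome. Of the tested members the first along the chromosome was mt-Rnr1 (mm10 chrM:70-1024) and the last mt-Cytb (chrM:14145-15288), with 28 of the 37 genes on the plus strand and 9 on the minus strand. Estimated reads of all transcripts of a gene were added up, and 15 members, the mRNA and rRNA genes, passed the filter on low counts and were tested.

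Bulk RNA-seq was performed on leukemia initiating cells sorted by flow cytometry from the spleen. The Poly(A:U) group was 5 pups that had received 20 µg of Poly(A:U), a double-stranded RNA made in the laboratory, and the PBS group was 5 pups that had received 50 µl of PBS. Cells were taken 7 days after treatment at an age of 13 days, and the question in the series' design text was what Poly(A:U) does to these cells. All 10 pups carried the RFP/RET transgene (Eμ-Ret), a fusion gene driven in the B lineage by the immunoglobulin heavy-chain enhancer, so both groups are transgenic and no pup without the transgene is compared here.

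Mitochondrial DNA encodes a small part of the respiratory chain: subunits of complex I, which takes electrons from NADH, cytochrome b of complex III, the catalytic core of complex IV, which passes electrons to oxygen, and membrane subunits of the ATP synthase. A single polymerase reads each strand into a long transcript, which is then cut, mostly at the tRNAs that lie between the genes. All the other subunits are nuclear genes whose proteins are imported, so a working chain draws on both genomes.

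Libraries held between 17859006 and 22587871 estimated reads, and genes with at least 10 reads numbered from 13396 to 16006, the highest in PBS 4. Summed markers of B cell precursors, 9 of 9 of them measured, were 11481 to 14539 CPM (reads of a gene per 1000000 library reads) in Poly(A:U) libraries and 10024 to 16111 CPM in PBS libraries. Cd79a, which signals for the B cell receptor, had 2588 to 3549 CPM in Poly(A:U) libraries and 2541 to 3687 CPM in PBS libraries. Markers of other cells were present unevenly. The 7 erythroid markers summed to 3881, 8735, 3076, 2662 and 1026 CPM in Poly(A:U) 1 to 5, against 99.4, 308, 225, 1835 and 8085 CPM in PBS 1 to 5. The 7 neutrophil markers summed to 28.9 to 257 CPM in Poly(A:U) libraries and to 681, 1024 and 863 CPM in PBS 1 to 3, with 50.5 and 47.6 CPM in PBS 4 and PBS 5. The 6 T cell markers summed to 20.4 to 39.0 CPM in Poly(A:U) libraries and to 22.0 to 26.8 CPM in 4 PBS libraries, with 214 CPM in PBS 4. The 7 macrophage markers summed to 9.97 to 33.4 CPM in Poly(A:U) libraries and to 21.9 to 27.4 CPM in 4 PBS libraries, with 134 CPM in PBS 4. The T cell receptor component Cd3e was at 0 in Poly(A:U) 1, Poly(A:U) 2 and PBS 1, and at 53.9 CPM in PBS 4. Most of the T cell sum of PBS 4 was Lck, at 140 CPM, and Cd3e, with Trac at 12.6 and Cd3g at 3.69 CPM. The list was not high there as a whole, since Cd3d at 0.15 and Cd5 at 3.39 CPM were the lowest of the PBS libraries. The part of these cells in the values below was not tested.

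Mitochondrial genes held a similar share of the reads in both groups. They took 3.94%, 5.53%, 4.17%, 2.93% and 3.00% of library reads in Poly(A:U) 1 to 5, against 3.40%, 4.68%, 4.29%, 3.40% and 3.80% in PBS 1 to 5. The highest and the 2 lowest libraries were all from Poly(A:U) pups, and the PBS libraries lay within the range of the Poly(A:U) libraries. The mean was 3.91% ± 1.06 in Poly(A:U) and 3.91% ± 0.562 in PBS libraries (SD, n = 5 each), a difference of 0.00076 percentage points. The 95% Wilson interval of a library's share reached at most 0.0098 percentage points to either side, so the spread between libraries was far larger than counting error, which is all that such intervals cover. In a bulk sample, fewer cells of a type and less RNA per cell cannot be told apart.

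Some libraries share part of their name, and the labels do not say what the shared parts stand for. In the pair formed by Poly(A:U) 1 and PBS 5 the share was 3.94% in Poly(A:U) and 3.80% in PBS. In the pair formed by Poly(A:U) 5 and PBS 4 it was 3.00% in Poly(A:U) and 3.40% in PBS, so the direction differed between the pairs. The library with the highest share, Poly(A:U) 2, also had the highest erythroid sum, while PBS 5 came close to that sum at a share of 3.80%. Without Poly(A:U) 2 the difference between the group means was -0.404 percentage points.

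**Figure D1:**
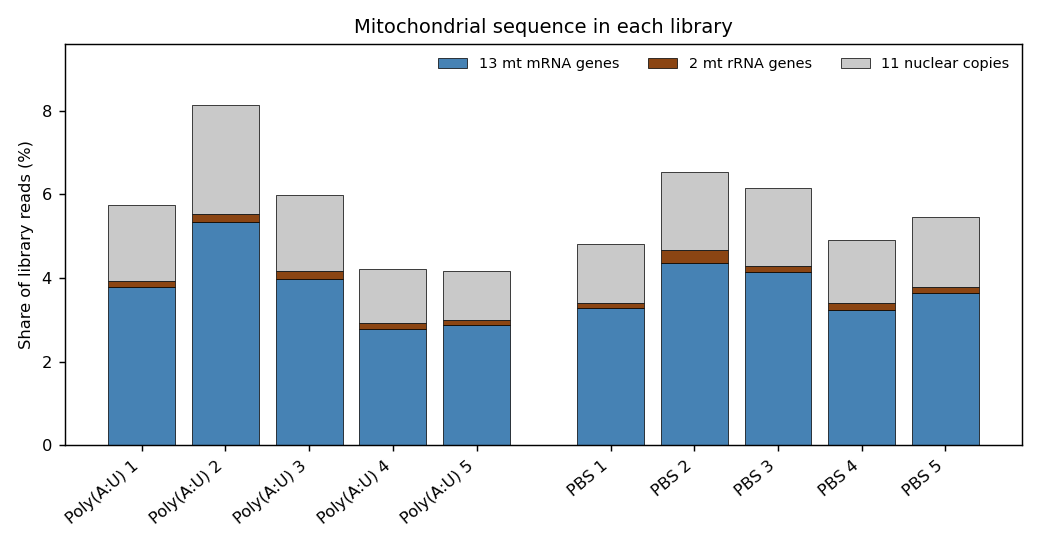
Share of library reads, in percent, held by the 13 mitochondrial mRNA genes, the 2 mitochondrial rRNA genes and 11 near-identical nuclear copies in each of the 10 libraries, stacked from 0. Poly(A:U) 2 is the tallest bar, and the mitochondrial genes alone range from 2.93% to 5.53% of reads.

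The mRNAs moved together from library to library. In Poly(A:U) 2, all 13 mRNAs lay above their own mean over the 10 libraries, and in PBS 2, 12 of 13 did. In Poly(A:U) 4 the number above was 0, in Poly(A:U) 5 it was 2, and in PBS 1 and PBS 4 it was 1 each. Poly(A:U) 2 was the highest library for 11 of the 13 mRNAs, and Poly(A:U) 4 or Poly(A:U) 5 was the lowest for 11 of them. The median coefficient of variation over the 10 libraries was 24.3% for the 15 members tested, 16.3% for all 13729 genes tested and 11.6% for the 2303 genes of at least 100 CPM. The members share a chromosome and its transcripts, so these are not independent observations.

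The reads of several members were divided with near-identical copies in the nuclear genome, and the sequences below show how few bases differ in some pairs. Of the annotated nuclear transcripts, those of 11 genes matched a mitochondrial gene over at least 100 bases at 95% identity or more. Of these, 7 lay side by side on the minus strand of chromosome 1 within 4663 bases (mm10 chr1:24611535-24616197), all annotated as unprocessed pseudogenes, and they matched at 99.71% to 100% identity. They were Gm29216 (mt-Co1), Gm28661 (mt-Co2), Gm10925 (mt-Atp6), Gm28437 (mt-Co3), Gm28438 (mt-Nd3), Gm10222 (mt-Nd4l) and Gm28439 (mt-Nd4), and 5 of the 7 had no mismatch at all. Another 3 lay on chromosome 2 at 95.9% to 97.6% identity, and Gm4076, a match to mt-Nd5, lay on chromosome 13. The stretches below are from the GENCODE M21 transcripts, 5′ to 3′. Those of mt-Nd3 and mt-Co1 hold the only base that differs from the copy within the aligned bases. Gm29216 has 492 bases, of which 483 aligned to mt-Co1, and its other bases are not covered. Capitals mark a base that differs, and the pair with no capitals is identical over all 681 aligned bases. The mitochondrial stretches are chrM:9459-9481, chrM:6390-6413 and chrM:7033-7073 on the plus strand, and the copies are chr1:24613097-24613119, chr1:24616165-24616188 and chr1:24615505-24615545 on the minus strand, all in mm10.
mt-Nd3: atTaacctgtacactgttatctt
Gm28438: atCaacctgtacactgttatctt
mt-Co1: ggaAttgttttatccaactcatcc
Gm29216: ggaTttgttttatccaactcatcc
mt-Co2: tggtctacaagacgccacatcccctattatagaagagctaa
Gm28661: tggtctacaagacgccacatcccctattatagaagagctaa
The difference between mt-Nd3 and Gm28438 is T3C, the mitochondrial base first and the position counted from 1 at the 5′ end of the mitochondrial transcript, and it is the only mismatch in 345 aligned bases. Between mt-Co1 and Gm29216 it is A1066T, the only mismatch in 483 aligned bases.

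For mt-Co2, mt-Atp6 and mt-Co3, whose chromosome 1 copies cover nearly the whole gene with no mismatch, most reads went to the copies. Of the reads given to mt-Co2 or its copies, mt-Co2 kept 8.46% to 12.7% per library. For mt-Atp6 the share kept was 18.9% to 28.7% and for mt-Co3 31.1% to 35.9%. Gm28661 alone held 1188247 reads over the 10 libraries. mt-Nd3 kept 21.7%, 47.8%, 33.8%, 34.2% and 83.5% in Poly(A:U) 1 to 5, against 65.6%, 33.9%, 36.4%, 56.2% and 31.9% in PBS 1 to 5, so the libraries of each group differed widely and the groups overlapped. mt-Nd4l, whose copy also matches without a mismatch over nearly the whole gene, kept most of its reads, 58.6% to 84.0%. The copies of mt-Co1 cover only part of the gene or match less closely, and mt-Co1 kept 89.0% to 96.3%. Gm28439 matches mt-Nd4 without a mismatch over 876 of its 1378 bases, and mt-Nd4 kept 99.3% to 99.7%. Why the split differed between genes was not tested.

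**Figure D2:**
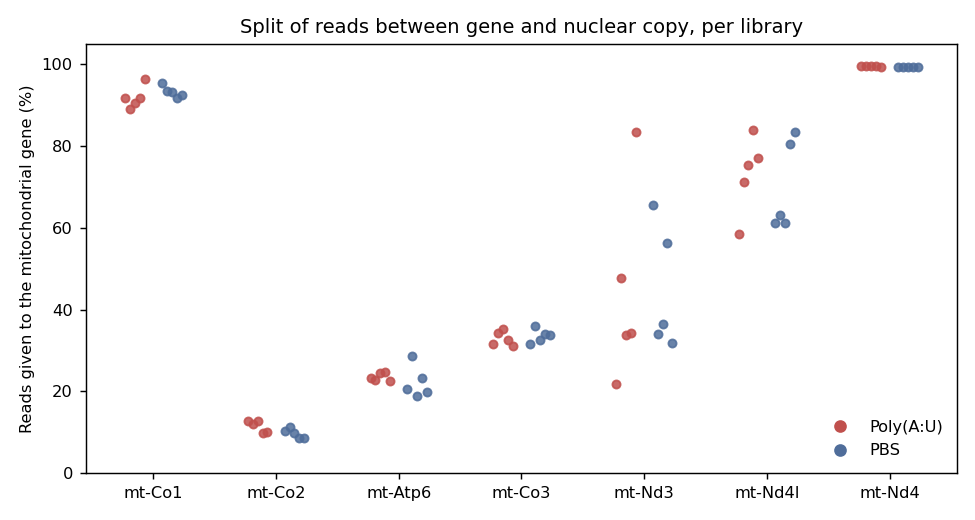
Percent of reads given to the mitochondrial gene, out of the gene and its nuclear copies together, for 7 genes, with a point for each of 5 Poly(A:U) and 5 PBS libraries. mt-Co2 lies at 8.46% to 12.7%, mt-Nd4 at 99.3% to 99.7%, and mt-Nd3 scatters from 21.7% to 83.5%.

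The 11 copies together took 1.80%, 2.60%, 1.82%, 1.30% and 1.17% of library reads in Poly(A:U) 1 to 5, against 1.43%, 1.86%, 1.87%, 1.51% and 1.66% in PBS 1 to 5. They were high and low in the same libraries as the mitochondrial genes, and the groups overlapped. With the copies added, the share of mitochondrial sequence was 5.65% ± 1.62 in Poly(A:U) and 5.58% ± 0.757 in PBS libraries (SD, n = 5 each). Whether reads given to a copy came from the nuclear locus or from mitochondrial RNA cannot be told from identical sequence, so levels of mt-Co2, mt-Atp6, mt-Co3, mt-Nd3 and mt-Nd4l as counted are uncertain.

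Complex IV took the largest part of the mitochondrial reads, 44.0% ± 0.663 in Poly(A:U) and 44.1% ± 2.41 in PBS libraries (SD, n = 5 each). mt-Co1, the catalytic subunit that holds the heme and copper centre, had 14162, 19870, 14515, 10723 and 11494 CPM in Poly(A:U) 1 to 5, against 14026, 16888, 15801, 11664 and 13957 CPM in PBS 1 to 5. It held more reads than any other member in every library, with Poly(A:U) libraries at both ends of the range. Its log2 fold change was -0.05 ± 0.18 (SE), with an adjusted p of 0.954 by edgeR's quasi-likelihood test. mt-Co2, which receives electrons from cytochrome c, had 868, 1201, 921, 499 and 467 CPM in Poly(A:U) 1 to 5, against 573, 845, 699, 493 and 537 CPM in PBS 1 to 5. Its log2 fold change was the highest of the members as counted, 0.32 ± 0.27 (edgeR adjusted p = 0.763), and it was 0.05 with the copies added. As counted it was 0.087 without Poly(A:U) 2 and 0.60 without PBS 1 to 3. mt-Co3, the third core subunit, had 1501 to 3386 CPM in Poly(A:U) and 1696 to 2678 CPM in PBS libraries, with a log2 fold change of 0.06 ± 0.22.

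Complex I took 31.4% ± 0.833 of mitochondrial reads as counted in Poly(A:U) and 31.9% ± 1.84 in PBS libraries (SD, n = 5 each). With the copies added, complex I took 22.5% ± 0.637 in Poly(A:U) and 23.0% ± 1.10 in PBS libraries. Its membrane arm is built on 7 mitochondrial subunits. mt-Nd4 had 4054, 5352, 3997, 2759 and 2773 CPM in Poly(A:U) 1 to 5, against 3084, 4302, 4279, 3415 and 3798 CPM in PBS 1 to 5. mt-Nd1, at the junction with the peripheral arm, had 3932, 5574, 3921, 2682 and 2588 CPM in Poly(A:U) 1 to 5, against 2939, 4224, 4321, 3274 and 3603 CPM in PBS 1 to 5. In both genes the 5 PBS libraries lay inside the range of the 5 Poly(A:U) libraries. mt-Nd5 had 1607 to 3127 CPM in Poly(A:U) and 2084 to 3352 CPM in PBS libraries, and mt-Nd2 had 1400 to 2802 CPM in Poly(A:U) and 1552 to 2223 CPM in PBS libraries. The log2 fold changes of mt-Nd1, mt-Nd2, mt-Nd4 and mt-Nd5 were 0.01, -0.01, -0.01 and -0.15, each smaller than its standard error of 0.19 to 0.22.

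The genes of the small complex I subunits held fewer reads. mt-Nd4l had 231 to 385 CPM in Poly(A:U) and 256 to 360 CPM in PBS libraries. mt-Nd3 had 83.7, 274, 142, 111 and 209 CPM in Poly(A:U) 1 to 5, against 188, 155, 152, 204 and 109 CPM in PBS 1 to 5, and Poly(A:U) 1, the lowest library, was also the one with the smallest share kept from the copy. With the copy added its level per length was highest in Poly(A:U) 2 and lowest in Poly(A:U) 5. Log2 fold changes as counted were -0.04 ± 0.15 for mt-Nd4l and 0.00 ± 0.32 for mt-Nd3 (SE), with edgeR adjusted p-values of 0.956 and 0.999.

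mt-Cytb, cytochrome b, is the mitochondrial subunit of complex III and held the most reads after mt-Co1 as counted. With the copies added, mt-Atp6, mt-Co2 and mt-Co3 had higher mean CPM than mt-Cytb. It had 5393, 7880, 5853, 4058 and 4351 CPM in Poly(A:U) 1 to 5, against 4271, 5803, 5305, 4754 and 5095 CPM in PBS 1 to 5. The groups overlapped, and the log2 fold change was 0.11 ± 0.18 (SE; edgeR adjusted p = 0.883). As a share of mitochondrial reads it was steadier, at 13.7%, 14.2%, 14.0%, 13.9% and 14.5% in Poly(A:U) 1 to 5, against 12.6%, 12.4%, 12.4%, 14.0% and 13.4% in PBS 1 to 5. All Poly(A:U) libraries lay above 4 of the 5 PBS libraries, and PBS 4 lay within their range. The 3 PBS libraries with the lowest shares, PBS 1 to 3, are those with the same start of name and the high neutrophil sums. Without them the difference between group means was 0.373 percentage points, against 1.12 with all libraries.

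The ATP synthase genes mt-Atp8 and mt-Atp6 lie on a single mRNA and overlap. mt-Atp8 had 931, 1224, 1026, 762 and 582 CPM in Poly(A:U) 1 to 5, against 922, 1150, 1218, 924 and 1008 CPM in PBS 1 to 5. mt-Atp6, the subunit that forms the proton path, had 1669, 2303, 1709, 1229 and 1055 CPM in Poly(A:U) 1 to 5, against 1190, 2199, 1388, 1442 and 1298 CPM in PBS 1 to 5. Both had their lowest library in Poly(A:U) 5, and the groups overlapped. Log2 fold changes were -0.22 ± 0.19 for mt-Atp8 and 0.07 ± 0.23 for mt-Atp6 (SE), with edgeR adjusted p-values of 0.755 and 0.949.

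The end of mt-Atp8 and the start of mt-Atp6 share 43 bases, and mt-Nd4l and mt-Nd4 share 7. Reads within these stretches fit both genes of a pair. The windows are shown with the shared bases in capitals, from chrM:7912-7984 and chrM:10152-10188 on the plus strand of mm10. In each the capitals open with ATG, the start codon of the downstream gene.
mt-Atp8 and mt-Atp6: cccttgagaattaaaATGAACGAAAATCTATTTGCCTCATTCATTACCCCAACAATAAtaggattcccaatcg
mt-Nd4l and mt-Nd4: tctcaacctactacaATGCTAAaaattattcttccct

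mt-Nd4l and mt-Nd4 likewise lie on a single mRNA, and the levels of genes on the same mRNA can be set side by side per length. Levels per length are given as CPM per kilobase of the counter's effective length. The ratio of mt-Atp8 to mt-Atp6 was 3.71 to 6.36 as counted, and 0.862 to 1.20 with the copies added. It averaged 0.964 ± 0.117 in Poly(A:U) and 1.10 ± 0.0687 in PBS libraries (SD, n = 5 each) with the copies added. The ratio of mt-Nd4l to mt-Nd4 was 0.402 to 0.755 as counted and 0.684 to 0.971 with the copies added. Across the complex IV genes, which lie on separate mRNAs, mt-Co2 over mt-Co1 was 0.106 to 0.174 as counted and 1.05 to 1.26 with the copies added, and mt-Co3 over mt-Co1 was 0.267 to 0.392 and 0.809 to 1.01.

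With the copies added, the order of mean level per length over the 10 libraries was mt-Atp8 at 14292, mt-Atp6 at 13886, mt-Co2 at 13118, mt-Co1 at 11188 and mt-Co3 at 10508. These 5 genes lie next to each other on the genome. Within libraries, mt-Atp8 was above mt-Atp6 in 7 of 10, mt-Atp6 above mt-Co2 in 8, mt-Co2 above mt-Co1 in all 10 and mt-Co1 above mt-Co3 in 9. mt-Cytb at 5358 and mt-Nd1 at 4878 came next, with mt-Cytb above mt-Nd1 in 9 of 10 libraries. mt-Nd4 at 3707, mt-Nd4l at 2888, mt-Nd2 at 2602, mt-Nd3 at 2432 and mt-Nd5 at 1634 followed. Among mRNAs other than mt-Nd6 the highest mean was 8.75 times the lowest with the copies added and 13.8 times the lowest as counted. The effective length of mt-Atp8 was only 65.3 to 71.9 bases of its 204, so its level per length rests strongly on that estimate.

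**Figure D3:**
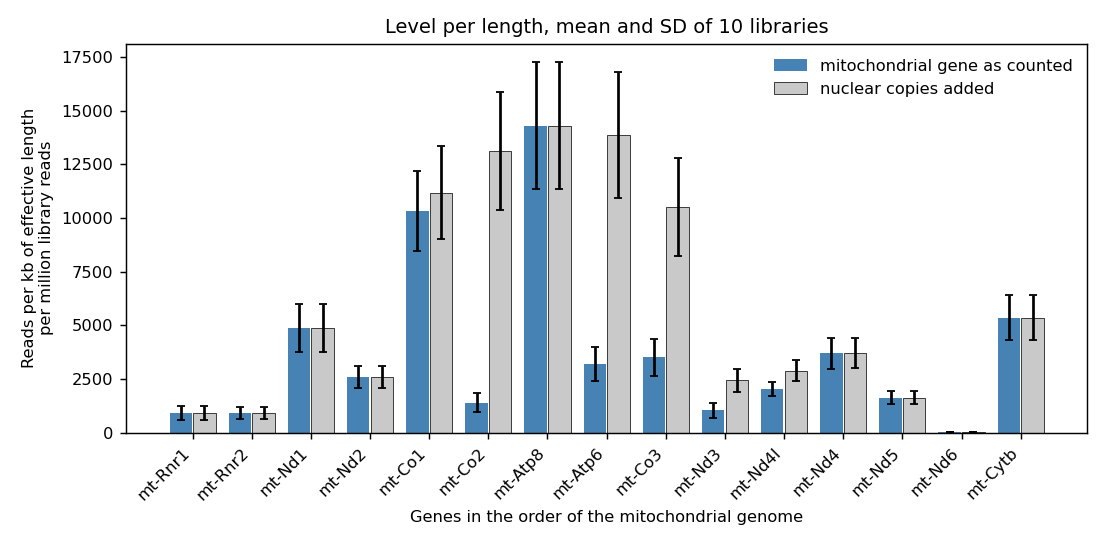
Level per length of the 15 detected members in genome order, as the mean and SD over 10 libraries, for the mitochondrial gene as counted and with its nuclear copies added. With copies added, the block from mt-Co1 to mt-Co3 lies between 10508 and 14292, whereas as counted mt-Co2, mt-Atp6 and mt-Co3 fall well below mt-Co1 and mt-Atp8.

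mt-Nd6 is the only mRNA gene on the minus strand, and it was by far the lowest, per length as well as in reads. It had 4.79, 13.5, 8.56, 7.12 and 8.26 CPM in Poly(A:U) 1 to 5, against 9.92, 22.9, 16.8, 4.77 and 5.70 CPM in PBS 1 to 5. PBS libraries held both the lowest and the 2 highest values, and the groups overlapped. The log2 fold change of -0.52 ± 0.44 (SE) had a 95% interval of -1.50 to 0.46 and an edgeR adjusted p of 0.760. Without PBS 1 to 3 the log2 fold change of mt-Nd6 turned to 0.67. It is the only member whose interval in the treatment-only fit of all libraries includes a 2-fold change. A library held 86 to 408 reads of it, so this value is also the least precise by counting. Per length, mt-Nd5 was 47.1 to 104 times as high as mt-Nd6 in Poly(A:U) libraries and 25.2 to 95.7 times in PBS libraries.

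The 3′ ends of mt-Nd5 and mt-Nd6 face each other and overlap by 14 bases, shown in capitals from chrM:13537-13565 on the plus strand and chrM:13552-13580 on the minus strand of mm10. The capitals are the same bases read on opposite strands.
mt-Nd5: ttatcttatactcaaTTAATCTCGAGTAA
mt-Nd6: ttattattatcgagaTTACTCGAGATTAA
Whether counting used strand is not given in the sources used here, so reads of mt-Nd6 and of plus-strand RNA across the same stretch cannot be told apart. The strands also differ in composition. G made up 28.1% of the bases of mt-Nd6, against 5.88% to 16.1% in the 12 mRNAs of the plus strand, and C made up 5.97%, against 22.1% to 30.0%.

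The 2 rRNAs of the mitochondrial ribosome took 4.17% ± 0.755 of mitochondrial reads as counted in Poly(A:U) and 4.55% ± 1.48 in PBS libraries (SD, n = 5 each). With the copies added to the total their part was 2.90% ± 0.533 in Poly(A:U) and 3.19% ± 1.07 in PBS libraries. mt-Rnr1, the 12S rRNA of the small subunit, had 564, 749, 760, 586 and 434 CPM in Poly(A:U) 1 to 5, against 378, 1197, 534, 501 and 565 CPM in PBS 1 to 5. mt-Rnr2, the 16S rRNA of the large subunit, had 846, 1164, 1214, 933 and 735 CPM in Poly(A:U) 1 to 5, against 700, 1997, 1010, 1263 and 938 CPM in PBS 1 to 5. PBS 2 was above all other libraries for both, and PBS 1 was the lowest for both. Log2 fold changes were -0.06 ± 0.30 for mt-Rnr1 and -0.30 ± 0.26 for mt-Rnr2 (SE), with edgeR adjusted p-values of 0.968 and 0.768. Without PBS 2 the difference in the share of the 2 rRNAs turned to 0.192 percentage points, against -0.378 with all libraries. The log2 fold changes without PBS 2 were 0.30 for mt-Rnr1 and -0.024 for mt-Rnr2.

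Per length, mt-Rnr1 averaged 907 and mt-Rnr2 914 over the 10 libraries, below every mRNA but mt-Nd6. The ratio of mt-Rnr2 to mt-Rnr1 per length was 0.887, 0.905, 0.926, 0.924 and 1.01 in Poly(A:U) 1 to 5, against 1.09, 0.974, 1.09, 1.47 and 0.976 in PBS 1 to 5. The groups overlapped through Poly(A:U) 5, and PBS 4 stood highest. Whether RNA was selected by its poly(A) tail or depleted of rRNA is not given in the sources used here, so the level of rRNA relative to mRNA applies only to these libraries.

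The tRNA genes, which lie between the other genes and carry amino acids to the mitochondrial ribosome, were almost without reads. Of 22 tRNA genes, only mt-Tl1 and mt-Td had any read, at most 1 in a library and 3 in all. The other 20 had 0 reads in every library, which allows a share of up to 1.68e-05% of reads in the shallowest of the libraries. tRNAs were 59 to 75 bases long and the counter gave them effective lengths of 2.1 to 7.1 bases.

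**Figure D4:**
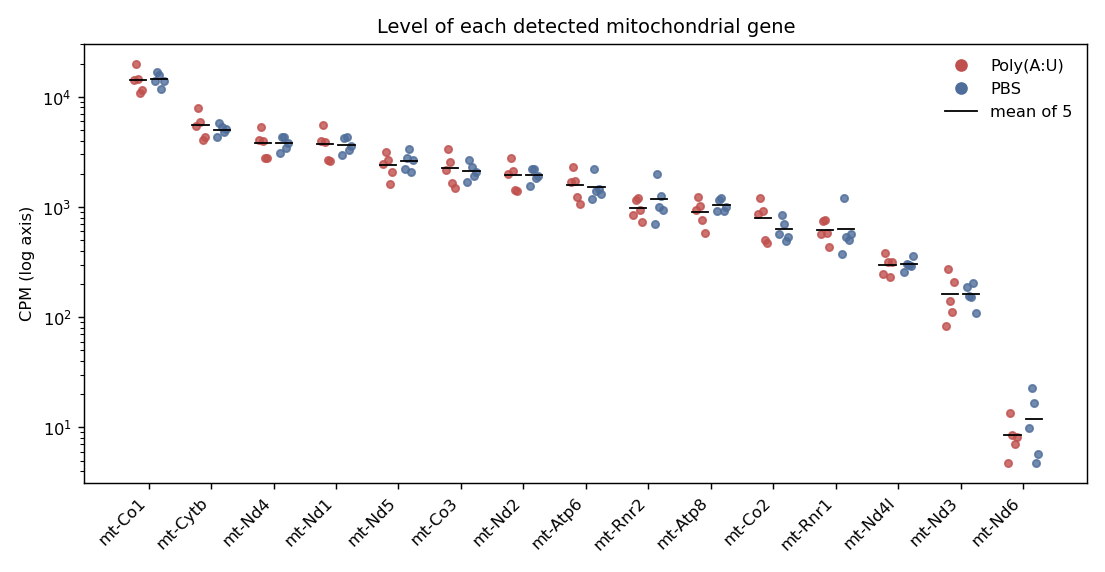
Level of the 15 detected members in CPM on a log axis, a point per library with the mean of 5 as a line, Poly(A:U) left of PBS for each gene. mt-Co1 lies highest at 10723 to 19870 CPM, mt-Nd6 lowest at 4.77 to 22.9 CPM, and the groups overlap for each gene.

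Between treatments, 0 of the 15 members passed the adjusted threshold of 0.05 in edgeR's quasi-likelihood test, which called 0 of all 13729 genes tested (0%). Without PBS 5 the test called 18 genes, 0 of them members. At an unadjusted p under 0.05 the count was 0 of 15 members, against 1002 of all genes (7.3%). DESeq2's Wald test called 0 members and 13 genes in all (0.0947%), and limma voom with quality weights called 0 members and 932 genes in all (6.79%). Members whose 2 groups did not overlap in CPM numbered 0 of 15, against 130 of all genes (0.947%). Fold changes were above 0 for 6 members and below 0 for 9, with a median of -0.01, against -0.0024 over all genes tested, of which 50.6% were below 0. Without PBS 1 to 3, fold changes were above 0 for 11 members and below 0 for 4. The median standard error was 0.22 for the members and 0.14 for all genes. In the treatment-only fit of all libraries, the 95% interval of 14 of the 15 members left out a 2-fold change in either direction. This bounds the change under that fit but does not show that the levels were equal. For mt-Co2 as counted the upper end was 0.92, and its log2 fold change was 0.60 without PBS 1 to 3.

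**Figure D5:**
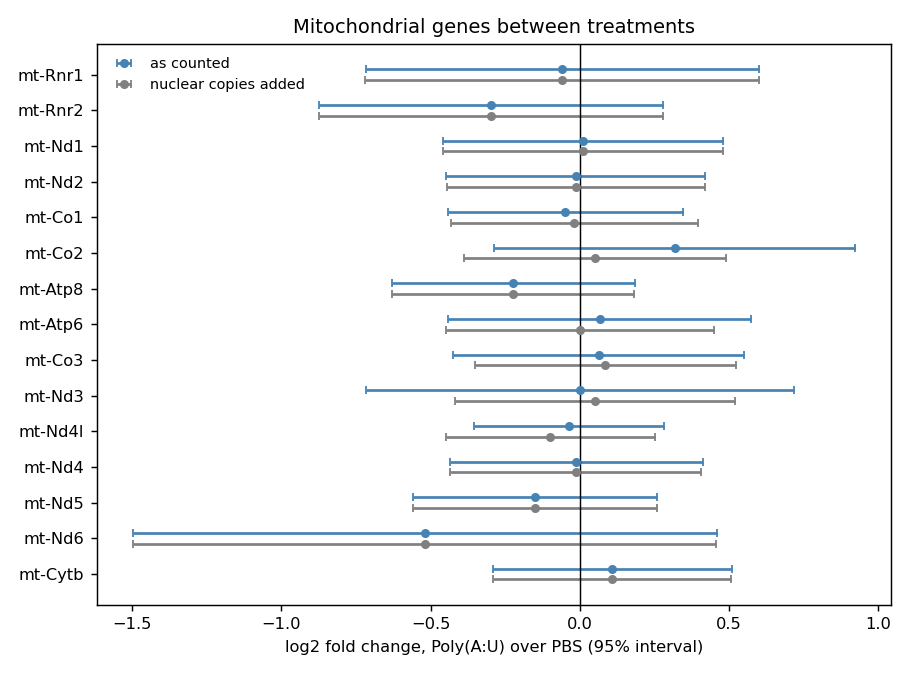
Log2 fold change of Poly(A:U) over PBS with its 95% interval for the 15 members in genome order, as counted and with nuclear copies added. Every interval includes 0, the widest belongs to mt-Nd6 at -1.50 to 0.46, and mt-Co2 lies at 0.32 as counted and 0.05 with copies added.

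The makeup of the mitochondrial reads was also compared, since it leaves out the mitochondrial share of the library. Each part still depends on the mitochondrial total, of which mt-Co1 alone was 34.3% to 41.3% as counted. Relative to the mitochondrial reads as counted, 0 of 15 members had groups that did not overlap, against 0.138% of all genes scaled in the same way. With the nuclear copies added, 1 of 15 did, mt-Co3, against 14 of 13720 genes (0.102%). These shares are not like for like, since for nuclear genes the scaling brings in the spread of the mitochondrial total. In CPM, 0.947% of all genes had groups that did not overlap, so how unusual mt-Co3 is cannot be read from 0.102%. mt-Co3 with its copy made up 12.0%, 12.2%, 12.1%, 12.0% and 11.6% in Poly(A:U) 1 to 5, against 11.2%, 11.4%, 11.4%, 11.4% and 11.2% in PBS 1 to 5. The step was small, 12.0% ± 0.225 in Poly(A:U) against 11.3% ± 0.123 in PBS libraries (SD, n = 5 each), and the gene was singled out after its values were seen. mt-Atp8 went the other way as counted, at 2.32% ± 0.253 in Poly(A:U) against 2.68% ± 0.140 in PBS libraries, with overlapping groups. mt-Co1 made up 36.3% ± 1.30 in Poly(A:U) and 37.1% ± 2.58 in PBS libraries as counted, a difference of -0.726 percentage points. That difference turned to 0.331 without PBS 1, to 0.807 without PBS 1 to 3 and to 1.61 in the 2 pairs that share a name part.

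The nuclear partners of these transcripts were also read. Among 16 genes that copy or transcribe the mitochondrial genome, 12 had a positive and 4 a negative fold change, with a median of 0.08 and 0 called. Of all genes tested, 50.6% were below 0 and 0% were called. Tfam, which packs mitochondrial DNA and starts its transcription, had 69.3, 62.4, 70.3, 73.8 and 73.0 CPM in Poly(A:U) 1 to 5, against 54.5, 58.9, 59.1, 56.8 and 58.5 CPM in PBS 1 to 5. Tefm, the elongation factor of the mitochondrial polymerase, had 10.6, 10.1, 8.85, 10.4 and 9.40 CPM in Poly(A:U) 1 to 5, against 5.76, 5.77, 6.72, 6.83 and 7.49 CPM in PBS 1 to 5. In both genes every Poly(A:U) library lay above every PBS library. They were picked as the 2 genes of smallest p in the list, so this separation is not independent support. Groups did not overlap for 2 of the 16 genes, against 0.947% of all genes tested. The log2 fold changes were 0.25 ± 0.065 for Tfam and 0.57 ± 0.13 for Tefm (SE), with an edgeR adjusted p of 0.677 for each, a value that 920 genes share as the smallest of the table. Limma voom with quality weights, which called 6.79% of all genes, gave adjusted p-values of 0.0289 for Tfam and 0.0287 for Tefm. The mitochondrial mRNAs did not order the libraries in this way.

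Of 29 genes that cut, modify, stabilise or degrade mitochondrial RNA, 28 were found and tested. Of these, 15 had a positive and 13 a negative fold change, with a median of 0.01 and 0 called. Over all genes tested, 50.6% were below 0 and 0% were called. Fastkd3, of a family that acts on mitochondrial RNA, had 14.6, 14.1, 14.4, 17.3 and 16.8 CPM in Poly(A:U) 1 to 5, against 8.45, 8.57, 7.04, 10.7 and 13.0 CPM in PBS 1 to 5. The groups did not overlap, with PBS 5 nearest to the Poly(A:U) libraries, and the log2 fold change was 0.67 ± 0.16 (SE; edgeR adjusted p = 0.677; voom adjusted p = 0.0269). PBS 1 to 3 were the 3 lowest libraries, and without them it was 0.36. Trmt10c, a subunit of the enzyme that cuts the 5′ ends of mitochondrial tRNAs, had 25.2 to 30.6 CPM in Poly(A:U) and 18.7 to 27.2 CPM in PBS libraries, with overlapping groups and a log2 fold change of 0.28 ± 0.11 (SE; edgeR adjusted p = 0.677; voom adjusted p = 0.0339). Without PBS 1 to 3 its log2 fold change was 0.053.

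The nuclear genes of the respiratory complexes differed little. Of 71 such genes tested, 56 had a positive and 15 a negative fold change, with a median of 0.06, 0 called and 0 with groups that did not overlap. Of all genes tested, 50.6% were below 0, 0% were called and 0.947% had groups that did not overlap. By complex, the count of positive and negative fold changes was 28 and 8 for complex I, 6 and 3 for complex III, 11 and 0 for complex IV, and 11 and 4 for the ATP synthase. The members of each with the smallest p-values had log2 fold changes of 0.19 (Ndufa1 and Ndufc2), 0.13 and 0.10 (Uqcrh and Uqcrq), 0.19 and 0.14 (Cox6c and Cox7a2) and 0.24 and 0.16 (Atp5k and Atp5j2). Without Poly(A:U) 2 they were, in the same order, 0.14, 0.13, 0.049, 0.031, 0.088, 0.097, 0.16 and 0.039. Atp5k, a membrane subunit of the ATP synthase, had 63.9, 81.9, 82.1, 75.2 and 54.8 CPM in Poly(A:U) 1 to 5, against 54.1, 69.1, 62.0, 57.5 and 55.9 CPM in PBS 1 to 5, and the groups overlapped through Poly(A:U) 1 and Poly(A:U) 5. Poly(A:U) 5 was also low for the mitochondrial mRNAs.

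Among 30 protein genes of the mitochondrial ribosome, 24 had a positive and 6 a negative fold change, with a median of 0.06 and 0 called. Of all genes tested, 50.6% were below 0 and 0% were called. Mrpl1 and Mrpl16, of the large subunit, had log2 fold changes of 0.23 ± 0.11 and 0.16 ± 0.088 (SE), with overlapping groups for both, and voom gave an adjusted p of 0.0346 for Mrpl1. Without PBS 1 to 3 the log2 fold changes were 0.054 for Mrpl1 and 0.090 for Mrpl16. Mrps2, of the small subunit, was the only gene of this list with groups that did not overlap, 1 of 30 against 0.947% of all genes tested. It averaged 43.2 ± 2.00 CPM in Poly(A:U) and 38.4 ± 3.07 CPM in PBS libraries (SD, n = 5 each), with a log2 fold change of 0.14 ± 0.081 (SE; edgeR adjusted p = 0.694).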

How the data were processed

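Per the file headers, the authors deposited estimated counts, TPM values and effective lengths of transcripts for each library, and a normalized signal per gene for the series. Per the submitters' processing notes, DRAGEN, edgeR 3.38.4 and the build mm10 were used; no source used here gives counter settings, annotation release or strand. Transcripts were assigned to genes with GENCODE M21 (538 of 142333 had no gene and held at most 0.0695% of reads), and estimated counts were summed and rounded. Depth was 17859006 to 22587871 reads per library. Genes passing filterByExpr (13729) were tested with edgeR 4.0.16 (quasi-likelihood, TMM, treatment only, Benjamini-Hochberg, two-sided, threshold 0.05), with DESeq2 1.42.0 and limma 3.58.1 as alternatives, and the fits were tried on simulated data. Nuclear copies were found with blastn 2.17.0. The p-values set the group difference against the spread between the pups' libraries. Members and lists were chosen with earlier results of these data known. Named were all mitochondrial mRNA and rRNA genes, the 2 list members of smallest p, the first marker of a list where it helps, and the main copies; mt-Co3's share and Mrps2 were singled out after their values were seen. Replicate numbers did not pair the libraries, with correlations of deviations of -0.183 to 0.14.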

Additional observations from a re-analysis of the deposited data

Results flagged for a closer look

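In groups of 5 libraries, 5 of 84 sets of values held a library far from the other 4 of its group, and chance flags about 1 in 20 such groups. mt-Rnr1 had 1197 CPM in PBS 2, against 378 to 565 CPM in the other PBS libraries. As a share of mitochondrial reads it was 2.56% in PBS 2, against 1.11% to 1.49% in the others. mt-Atp6 had 2199 CPM in PBS 2, against 1190 to 1442 CPM in the other PBS libraries. It also kept 28.7% of the reads divided with its copy in PBS 2, against 18.9% to 23.3% in the others. With the copy added it had 7658 CPM in PBS 2 and 5787 to 7355 CPM in the other PBS libraries. In Poly(A:U) 5, mt-Atp6 made up 3.52% of mitochondrial reads, against 4.10% to 4.24% in the other Poly(A:U) libraries. Gm13340, a copy of mt-Co1 on chromosome 2, had 74.2 CPM in PBS 4, against 14.6 to 18.3 CPM in the other PBS libraries.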

How the results depend on the processing

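The number of genes called, 0 by the edgeR test, was 13 by DESeq2's Wald test and 932 by limma voom, and between 0 and 18 when each library was left out in turn, with 18 reached without PBS 5. No mitochondrial gene was called under any of these settings, and the cause of the differing counts was not tested. The difference in mitochondrial share stayed within the spread of the libraries, at -0.361 percentage points by TPM, 0.0745 with nuclear copies added, -0.0518 in the authors' deposited table, 0.314 without PBS 1 to 3, -0.13 in the 2 pairs that share a name part, and -0.404 to 0.248 when each library was left out. The numbers of the replicates did not pair the libraries. A fit with the replicate block called 0 genes and gave log2 fold changes of 0.025 for mt-Rnr1, -0.044 for mt-Nd1 and -0.10 for mt-Nd3, each of the opposite sign.

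Signs of values near 0 turned easily, and some larger values turned as well. Among these were mt-Nd6 at -0.52 and Mrpl1 at 0.23 with all libraries and treatment only. mt-Nd3 was at -0.0097 with DESeq2 size factors, -0.0033 with totals and TMM taken without mitochondrial genes, -0.0067 with a filter of 10 CPM and -0.0103 by DESeq2's Wald test, and mt-Nd4 was at 0.00042 with library totals only. By voom, mt-Nd1 was at -0.10, mt-Atp6 at -0.019, mt-Co3 at -0.022 and mt-Nd3 at -0.25. With the name start as covariate, mt-Rnr1 was at 0.19, mt-Nd2 at 0.040, mt-Co1 at 0.12, mt-Nd4 at 0.048 and mt-Nd6 at 0.67, and without PBS 1 to 3 the same genes were at 0.19, 0.045, 0.12, 0.052 and 0.67. With all name parts as terms, mt-Nd1 was at -0.16, mt-Atp6 at -0.10, mt-Co3 at -0.19, mt-Nd3 at -0.23, mt-Nd6 at 0.23, mt-Cytb at -0.076, Uqcrq at -0.14, Cox6c at -0.0057, Atp5j2 at -0.031 and Mrpl1 at -0.050. Leaving out each library gave -0.13 to 0.25 for mt-Atp6, -0.23 to 0.043 for mt-Co1, -0.16 to 0.18 for mt-Co3, -0.085 to 0.21 for mt-Cytb, -0.21 to 0.12 for mt-Nd1, -0.21 to 0.088 for mt-Nd2, -0.30 to 0.17 for mt-Nd3, -0.20 to 0.089 for mt-Nd4, -0.17 to 0.049 for mt-Nd4l and -0.20 to 0.30 for mt-Rnr1.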
